A study of Mus musculus with 9 samples.

Results

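The 43 genes described here carry signals from the T cell receptor inward, among 21631 protein-coding genes placed on mm10. Each gene's locus was made of the union regions that overlap its body, or that lie outside any gene and have its end as the nearest protein-coding gene end within 100 kb. A union region is a stretch in which the peaks of the 9 lists, merged wherever they share at least 1 base, touch each other. The 43 loci held 553 of the 62963 union regions, 370 in gene bodies and 183 outside. Chromatin accessibility was measured by ATAC-seq, which cuts and tags open DNA with the Tn5 transposase. The cells were P14 CD8 T cells, whose transgenic receptor recognises the GP33-41 epitope of the LCMV glycoprotein on H-2Db, from mice with a TCF-1-GFP reporter. Per the labels, 500000 naive P14 cells were given to mice on the B6 background 8 days after subcutaneous B16.F10 melanoma cells that express that glycoprotein. Donor cells were sorted from the tumor-draining lymph nodes as CD45.1+ CD44+ CD8 T cells at day 4 (D4), day 8 (D8) or day 21 (D21) after transfer, with 3 lists of peaks per day and 50000 cells per library. All cells are labelled WT and strain C57BL/6, all hosts bore the tumor, and no naive cells or tumor-free hosts were compared. The labels do not say whether the lists of a day came from separate animals, so p-values measure the spread between these lists, which may be technical. Summit pileups recovered at the regions that all 9 lists called differed less between same-day lists than Poisson counting would give. Their chi-square was 0.417 to 0.444 a region, and for lists of different days it was 0.965 to 1.18. Independent counts at fixed positions would give about 1. A summit is a local maximum picked in each list and need not vary as such counts do. These values thus cannot show whether the lists are independent. The files do not show if same-day lists are independent libraries, and if they are not, every limma p below is too small.

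In T cells, ligand binding lets the Src family kinases Lck and Fyn phosphorylate the receptor's signalling chains, on which Zap70 docks and then phosphorylates the adaptors Lat and Lcp2 (SLP-76). These adaptors gather enzymes that open the calcium and calcineurin route, the diacylglycerol routes to Ras-MAPK and NF-kB, and the PI3K route. Phosphatases, ubiquitin ligases and inhibitory receptors hold the same steps back, and some of them are themselves induced when a T cell meets antigen. Accessibility at a locus is not a measure of its RNA or protein.

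The D4 lists held 20534 ± 1496 peaks (mean ± SD, 3 lists), the D8 lists 48811 ± 1776 and the D21 lists 48420 ± 2832. Depth is known only from the lowest background level found under any peak of a list, which was 2.89 ± 0.424 tags on D4, 2.38 ± 0.246 on D8 and 2.60 ± 0.414 on D21. All 8 CD8 T cell markers had called regions in every list of every day. Regions at 6 B cell markers went from 0 to 1 per list on D4 to 11 to 12 on D8 and 10 to 14 on D21, with Cd79a, Cd79b, Ms4a1 and Ebf1 at 0 on D4 and Ms4a1 at 0 throughout. Those at 6 myeloid and dendritic markers went from 2 to 3 to 12 to 14 and 12 to 13, with Csf1r, Lyz2, Cd14 and Itgax at 0 on D4 and Lyz2 at 0 throughout. Those at 5 endothelial and stromal markers went from 2 to 4 to 19 to 24 and 19 to 21, with Kdr, Cdh5 and Pdgfra at 0 on D4. With every list cut to its 19499 strongest peaks, as many as the shortest list holds, B cell markers had 0 to 2 regions per list on every day, myeloid and dendritic ones 2 on D4, 3 to 6 on D8 and 4 on D21, and endothelial and stromal ones 2 to 4, 5 to 6 and 3 to 5. With all peaks, 3 CD4 T cell markers had 1 to 2 regions on D4, 7 to 8 on D8 and 6 on D21, with Foxp3 at 0 throughout, and 3 NK markers 8 to 12, 16 to 19 and 20 to 22, with Ncr1 at 0 on D4. The 6 melanoma markers had 4 to 6, 8 to 9 and 10 to 12, with Tyr and Sox10 at 0 throughout and Dct at 0 on D4, and the 4 erythroid and platelet markers 1, 4 and 4, with Hbb-bs and Pf4 at 0 throughout. In lists of equal length the CD4 T cell markers had 1 to 2, 1 to 3 and 2 to 3. The NK markers had 8 to 11, 8 to 10 and 8 there. Melanoma markers had 4 to 6 on every day, and erythroid and platelet markers 1. The part of other cells in the results below was not tested.

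The loci of receptor signalling genes had more called regions on D8 than on D4, and so did the lists as a whole. A region counts as called in a list if any of the list's peaks touches it by at least 1 base. The D4 lists called 171, 167 and 195 of the 553 regions, the D8 lists 410, 423 and 441, and the D21 lists 427, 407 and 454. Every later list lay above every D4 list, and D8 and D21 overlapped. The loci took 0.933% of all called regions on D4, 0.905% on D8 and 0.923% on D21 (means of 3 lists). In lists of equal length, with the 19499 strongest peaks, 169.7 ± 3.79 regions were called on D4, 166.3 ± 5.51 on D8 and 173.0 ± 3.46 on D21. The member counts of the days overlapped there. Over all loci these lists called 18190 ± 225 union regions on D4, 19340 ± 24.6 on D8 and 19330 ± 55.5 on D21. They were thus equal in peaks but not in called regions.

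**Figure D1:**
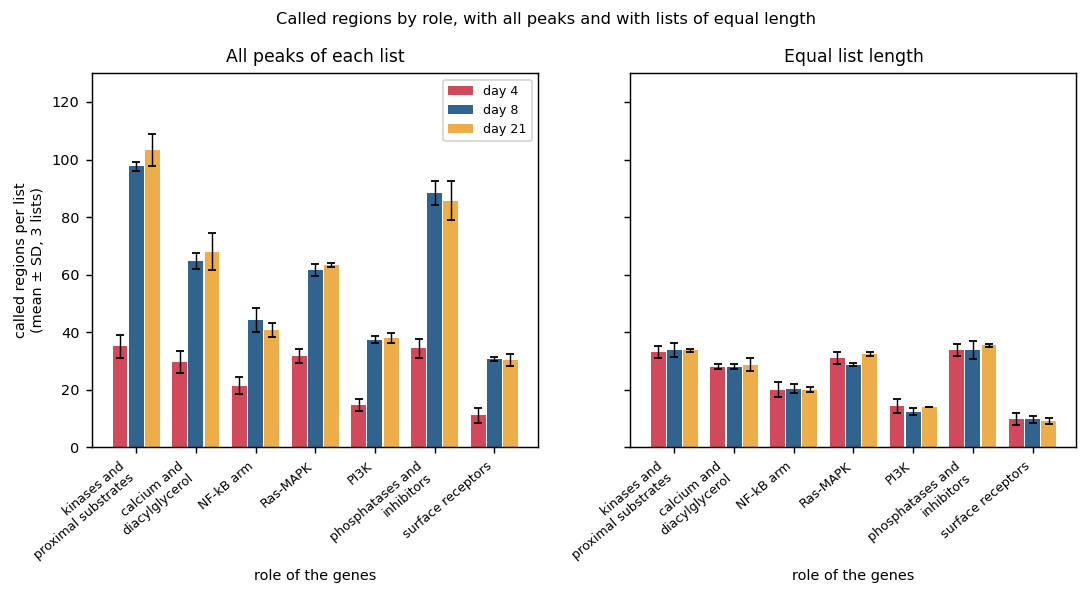
Called regions per list (mean ± SD of 3 lists; bars start at 0) by the role of the genes, with all peaks on the left and with lists of equal length on the right. With all peaks the D4 bars are the lowest in all 7 roles, as for the kinases and proximal substrates with 35.0 on D4 and 97.7 on D8, and with equal lengths the days lie close together, with 33.0 and 33.7.

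Single loci were compared with limma on log2((called regions + 0.5) / relative list length), over the 7829 genes with at least 3 union regions. This held 39 members, and Map2k1, Mapk3, Dgka and Orai1, with 2 regions each, were not tested. On D8 against D4, relative to list length, 6 members were called higher, where 15.6% of all genes were, and 11 lower, where 24.5% were. Of the 11, 8 (Lck, Zap70, Txk, Bcl10, Rasgrp1, Sos1, Ptpn6 and Cd5) were bound to be lower, because so many of their regions were called on D4 that even all of them called on D8 would fall short of the growth of the lists. The median log2 difference was -0.24 over the 39 members and -0.14 over all genes. With no division by list length 37 members were higher and 0 lower, beside 83.3% and 0% of all genes. In lists of equal length 0 members were called either way by limma, with 8 of 39 (20.5%) at an unadjusted p under 0.05, where 8.01% of all genes were, beside 0.0255% of all genes called higher and 0.115% lower. In simulated lists of the real lengths, 200 genes had their regions closed with a probability of 0.5 on D4 or on D8. The fit relative to list length called 2998 to 3137 of the 7829 genes there although they were unchanged. In the data it called 1220 genes higher and 1916 lower. Its calls are therefore given as a description and nothing is read from them. In 37 of the 39 members every D8 list lay above every D4 list, as it did in 80.6% of all genes, and in 0 every D8 list lay below, as in 0%. The exceptions were Bcl10 and Txk.

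**Figure D2:**
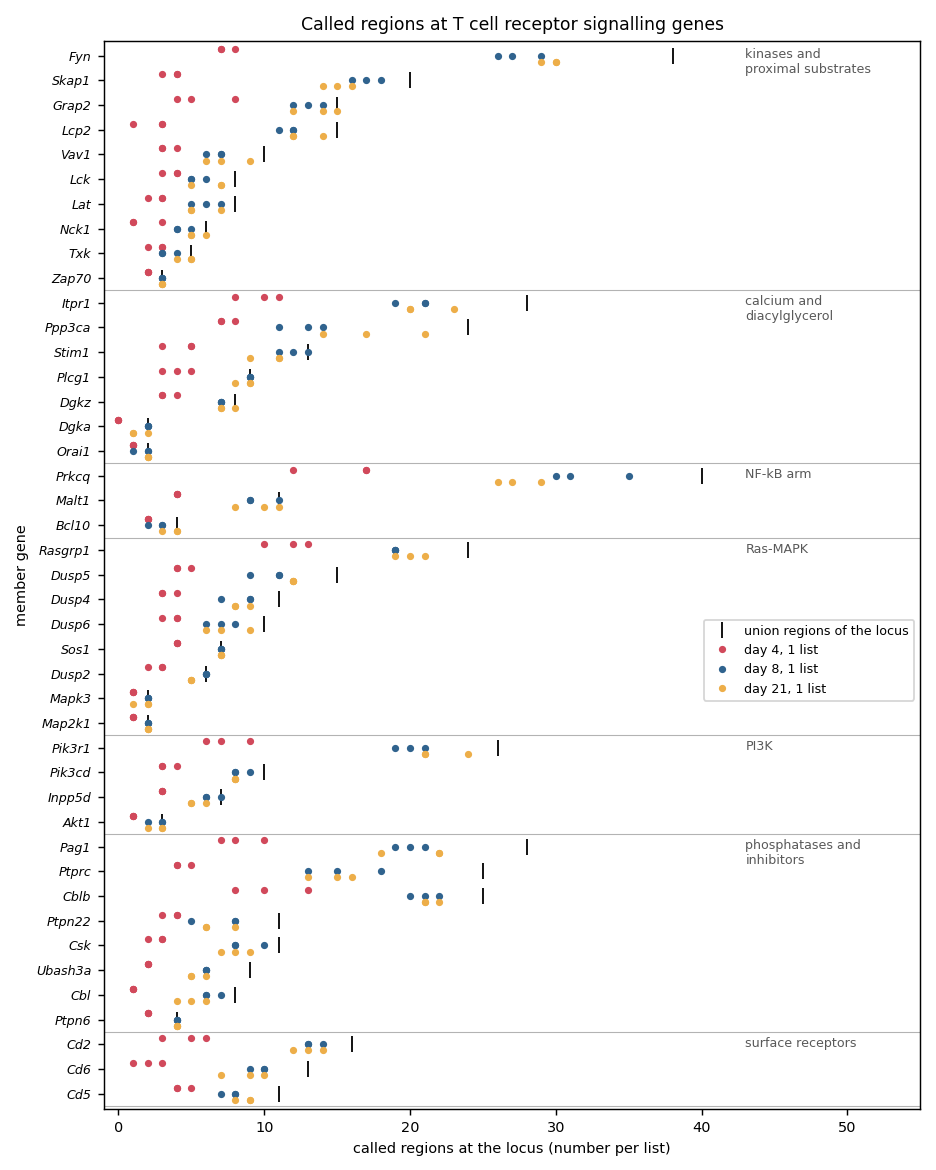
Called regions at each of the 43 loci (number per list), with 1 point per list coloured by day and a tick at the locus's union regions. The D4 points lie left of the D8 points at all loci but Txk, Bcl10 and Orai1, for example 7, 8 and 7 against 27, 26 and 29 at Fyn.

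Among the kinases and proximal substrates (10 genes, 128 regions), Fyn, a Src family kinase of the receptor, had the most regions. The D4 lists called 7, 8 and 7 of its 38, the D8 lists 27, 26 and 29, and the D21 lists 30, 29 and 30 (log2 difference D8 against D4 0.53 ± 0.10 SE relative to list length, limma adjusted p = 0.00256). It had 29 regions that no D4 list called. Skap1, an adaptor that couples the receptor to integrin adhesion, had 3, 4 and 4 of 20 called on D4, 17, 18 and 16 on D8 and 15, 14 and 16 on D21 (0.78 ± 0.12, adjusted p = 0.000951). Lcp2, the SLP-76 scaffold, had 1, 3 and 3 of 15 on D4, 12, 11 and 12 on D8 and 14, 12 and 12 on D21 (0.90 ± 0.27, adjusted p = 0.0232, and up to 0.0727 with 1 list left out, where leaving out any of the 3 D8 lists ended the call). All 3 were thus among the 6 called higher. In lists of equal length Fyn and Lcp2 turned to -0.37 and -0.25.

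Lck, the kinase that starts the cascade, had 4, 3 and 4 of its 8 regions called on D4, 6, 5 and 5 on D8 and 7, 5 and 7 on D21 (-0.81 ± 0.15, adjusted p = 0.00273). Zap70, the kinase that docks on the receptor chains, had 2 of 3 called in every D4 list and all 3 in every later list (-0.82 ± 0.19, adjusted p = 0.00645). Txk, a Tec family kinase, had 3, 3 and 2 of 5 on D4, 3, 4 and 3 on D8 and 5, 4 and 5 on D21 (-1.02 ± 0.20, adjusted p = 0.00332). All 3 were bound to be lower relative to list length, and no later count lay below the D4 counts. Grap2 (Gads), which bridges Lat and SLP-76, had 5, 4 and 8 of 15 on D4, 12, 14 and 13 on D8 and 12, 14 and 15 on D21, and did not pass. Lat, the membrane scaffold, Vav1, an exchange factor for Rac, and Nck1, an adaptor to actin, had 6 to 10 regions each with 1 to 4 called per D4 list and 4 to 7 per D8 list, and did not pass either.

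Among the calcium and diacylglycerol genes (7 genes, 86 regions), Itpr1, a calcium channel of the endoplasmic reticulum, had 10, 8 and 11 of 28 called on D4, 21, 19 and 21 on D8 and 20, 20 and 23 on D21 (-0.26 ± 0.09, adjusted p = 0.0404, and up to 0.131 with 1 list left out). Ppp3ca, the catalytic subunit of calcineurin that activates NFAT, had 7, 7 and 8 of 24 on D4, 11, 13 and 14 on D8 and 17, 14 and 21 on D21 (-0.56 ± 0.11, adjusted p = 0.00393). Its D21 lists reached from the top of the D8 range upward. Stim1, the sensor of calcium stores, had 3, 5 and 5 of 13 on D4, 11, 12 and 13 on D8 and 11, 9 and 11 on D21, and did not pass. Plcg1, which makes the second messengers of this route, had 4, 3 and 5 of 9 on D4, 9 in each D8 list and 8, 9 and 9 on D21. Dgkz and Dgka remove diacylglycerol. Dgkz had 3, 3 and 4 of 8 on D4 and 7 in each D8 list, and Dgka had 0 of 2 in every D4 list, 2 in every D8 list and 1, 1 and 2 on D21. Orai1, the pore opened by Stim1, had 1 of 2 in each D4 list and 2, 1 and 2 on D8.

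In the NF-kB arm (3 genes, 55 regions), Prkcq, the diacylglycerol-activated kinase PKC-theta, had the most regions of any member. The D4 lists called 12, 17 and 17 of its 40, the D8 lists 30, 31 and 35 and the D21 lists 26, 27 and 29. Malt1 and Bcl10 form the complex that relays its signal. Malt1 had 4 of 11 called in each D4 list, 9, 9 and 11 on D8 and 11, 8 and 10 on D21. Bcl10 had 2 of 4 in each D4 list, 2, 3 and 3 on D8 and 4, 3 and 4 on D21 (-0.98 ± 0.18, adjusted p = 0.00233). Of the 55 regions of the arm, 8 (14.5%) were gained between D4 and D8, that is called in 3 of 3 D8 lists and 0 of 3 D4 lists, beside 25.7% of all union regions. The genes of the arm differed, with 4 of 40 gained at Prkcq, 4 of 11 at Malt1 and 0 of 4 at Bcl10. In the other 6 roles the share ran from 22.1% (Ras-MAPK) to 32.5% (surface receptors).

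In the Ras-MAPK group (8 genes, 77 regions), Rasgrp1, the diacylglycerol-dependent activator of Ras, had 13, 10 and 12 of 24 called on D4, 19 in each D8 list and 21, 20 and 19 on D21 (-0.61 ± 0.11, adjusted p = 0.00199). Sos1, another Ras activator, had 4 of 7 in every D4 list and all 7 in every later list (-0.57 ± 0.11, adjusted p = 0.00300). The Dusp genes encode phosphatases that switch off MAP kinases. Dusp6 had 3, 4 and 4 of 10 on D4, 6, 7 and 8 on D8 and 7, 6 and 9 on D21 (-0.45 ± 0.15, adjusted p = 0.0321, and up to 0.111 with 1 list left out). Dusp5 had 5, 4 and 4 of 15 on D4, 11, 9 and 11 on D8 and 12 in each D21 list. Dusp4 had 4, 3 and 3 of 11 on D4, 7, 9 and 9 on D8 and 8, 9 and 8 on D21. Dusp2 had 3, 2 and 3 of 6 on D4, all 6 in each D8 list and 5 in each D21 list. The kinases Map2k1 (MEK1) and Mapk3 (ERK1) had 1 of 2 called in each D4 list and both in each D8 list.

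In the PI3K group (4 genes, 46 regions), 0 loci passed in limma. Pik3r1, the regulatory subunit p85, had 7, 6 and 9 of 26 called on D4, 19, 20 and 21 on D8 and 21, 21 and 24 on D21. Pik3cd, the catalytic subunit p110-delta, had 3, 3 and 4 of 10 on D4 and 8, 9 and 8 on D8. Inpp5d (SHIP1), which removes the PI3K product, had 3 of 7 in each D4 list, 6, 7 and 6 on D8 and 6, 5 and 5 on D21. Akt1, a kinase recruited by that product, had 1 of 3 in each D4 list and 3, 2 and 3 on D8.

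Among the phosphatases and inhibitors (8 genes, 121 regions), Cbl and Cblb are ubiquitin ligases that mark receptor components for removal. Cbl had 1 of 8 regions called in each D4 list, 6, 7 and 6 on D8 and 5, 4 and 6 on D21 (0.88 ± 0.14, adjusted p = 0.00131). Cblb had 10, 8 and 13 of 25 on D4, 20, 22 and 21 on D8 and 22, 21 and 21 on D21, and did not pass. The only region of Cbl called on D4 was the one at its start, whereas Cblb had 8 regions called in all 9 lists. Ptprc (CD45), a phosphatase that sets the activity of Lck, had 5, 4 and 4 of 25 on D4, 15, 13 and 18 on D8 and 15, 13 and 16 on D21 (0.40 ± 0.14, adjusted p = 0.0373, and up to 0.140 with 1 list left out). Ptpn6 (SHP-1), a phosphatase recruited by inhibitory receptors, had 2 of 4 in each D4 list and all 4 in every later list (-0.45 ± 0.15, adjusted p = 0.0373, and up to 0.0997 with 1 list left out).

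Pag1 and Csk act together to restrain Src family kinases. Pag1 had 7, 8 and 10 of 28 called on D4, 20, 19 and 21 on D8 and 22, 18 and 22 on D21. Csk had 3, 3 and 2 of 11 on D4, 8, 10 and 8 on D8 and 8, 7 and 9 on D21. Ptpn22, a phosphatase that acts with Csk, had 3, 4 and 4 of 11 on D4, 5, 8 and 8 on D8 and 6, 6 and 8 on D21. Ubash3a (STS-2), a negative regulator of receptor signalling, had 2 of 9 in each D4 list and 6 in each D8 list. None of these 4 passed.

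At each of the surface receptors (3 genes, 40 regions) every D8 list lay above every D4 list, as in 80.6% of all genes. In lists of equal length 0 of the 3 passed. Cd6, a receptor that tunes T cell activation, had 3, 1 and 2 of 13 called on D4, 9, 10 and 10 on D8 and 7, 10 and 9 on D21 (0.80 ± 0.25, adjusted p = 0.0288, and up to 0.0851 with 1 list left out). Cd5, an inhibitory receptor whose level follows receptor signalling, had 5, 4 and 4 of 11 on D4, 8, 7 and 8 on D8 and 8, 9 and 9 on D21 (-0.54 ± 0.13, adjusted p = 0.00938). Cd2, an adhesion and costimulatory receptor, had 5, 3 and 6 of 16 on D4, 13, 14 and 13 on D8 and 13, 12 and 14 on D21, and did not pass. Region by region, Cd6 had none called in all 9 lists, against 4 at Cd5 and 3 at Cd2.

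Of the 553 regions, 140 (25.3%) were gained on D8 over D4 and 0 were lost, beside 25.7% and 0.00953% of all union regions. The share of member regions that no D4 list and all 6 later lists called was 19.5%, beside 19.2% of all. Fyn gained 14 regions, Skap1 9 and Lcp2 8, and Txk, Bcl10, Akt1 and Orai1 gained 0. The widest gained region of each role was at Fyn (chr10:39468831-39469742, in the gene body), Dgkz (chr2:91975644-91976494, in the body), Prkcq (chr2:11216479-11217200, in the body), Sos1 (chr17:80501013-80502151, 20.6 kb outside), Pik3cd (chr4:149690334-149691322, in the body), Csk (chr9:57645140-57645918, at a start) and Cd6 (chr19:10787252-10787974, 1.36 kb outside). The Sos1 region, 1139 bp wide, had the largest fold enrichment of these 7 in each D8 list, 5.62, 6.10 and 6.42. Fold enrichment is the authors' value for a peak's summit over the local background of its own list.

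In lists of equal length 8 member regions were gained on D8 and 6 lost, beside 1.37% and 0.631% of all regions. These regions were named after their values were seen. The gained ones had fold enrichments of 4.87 to 10.2 on D8. A region 41.4 kb outside Cblb (chr16:51989254-51989815) was called in no D4 list and had a fold enrichment of 8.93, 8.32 and 8.55 on D8 and 9.44, 9.60 and 9.81 on D21. A region 31.2 kb outside Rasgrp1 (chr2:117374092-117374828) was called in 2 of 3 D4 lists with all peaks, at 3.54 and 3.20, and stood at 8.78, 9.42 and 9.63 on D8 and 10.4, 10.1 and 9.76 on D21. A region 0.433 kb outside Skap1 (chr11:96760055-96760518) was called in no D4 list, with 9.36, 9.21 and 9.09 on D8 and 6.73, 7.14 and 6.22 on D21. The other 5 lay at Fyn, Cd6, Dgkz, Pik3r1 and Ptprc, and all 8 were called in all 3 D21 lists with all peaks. The 6 lost ones lay at Cblb, Cd2, Pik3r1, Plcg1, Ppp3ca and Prkcq. They were all still called in every D8 list with all peaks, with fold enrichments of 3.28 to 5.62.

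The strength of regions was compared by rank, because fold enrichment rose across the lists. The median fold enrichment over the 15109 regions that every list called was 5.73 ± 0.0265 on D4, 8.98 ± 0.0429 on D8 and 8.78 ± 0.108 on D21. Over the 136 of them at member loci it was 5.02 ± 0.0961, 7.42 ± 0.0635 and 7.47 ± 0.0605. Each region's rank in a list was turned into a percentile and, for limma, a normal score, so a region that falls in rank gained less than others and need not be less open. On D8 against D4, 9 of the 136 regions (6.62%) rose in rank and 24 (17.6%) fell, beside 13.0% and 15.7% of all 15109. The 33 regions lay at 23 genes. The median score difference was -0.22 for members and -0.04 for all. Ranked by −log10 p instead, 4 rose and 13 fell, beside 5.94% and 5.96%. By both rankings, 3 rose and 7 fell, beside 4.95% and 4.35%. Of the 33, 17 passed with any 1 of the 9 lists left out.

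**Figure D3:**
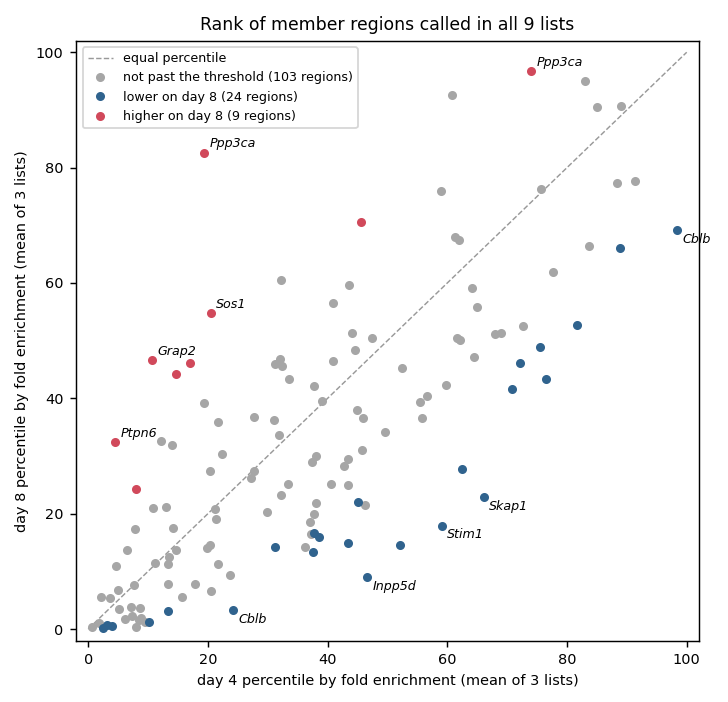
Mean percentile by fold enrichment on D4 (x) and D8 (y) of the 136 member regions called in all 9 lists; the dashed line marks equal percentiles. The 24 regions lower on D8 lie below the line and the 9 higher ones above it, and the 5 largest differences in each direction carry their gene's name.

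The region that fell most in rank lay at the start of Cblb (chr16:52030970-52032250). It stood at percentiles 99.2, 96.8 and 99.0 on D4, 69.5, 68.2 and 69.7 on D8 and 56.5, 59.3 and 60.3 on D21 (score difference -1.70 ± 0.20 SE, limma adjusted p = 0.000192). Its fold enrichment was 11.2, 9.82 and 10.6 on D4, 10.4, 10.3 and 10.3 on D8 and 9.24, 9.46 and 9.29 on D21. Its fold enrichment thus overlapped between D4 and D8, while the median region stood higher on D8. A region in the Cblb body (chr16:52060257-52060732) fell from percentiles 22.6, 30.6 and 19.4 to 1.27, 3.45 and 5.07 (-1.19 ± 0.24, adjusted p = 0.00327). Another (chr16:52129377-52130081) fell from 80.6, 60.7 and 88.4 to 36.3, 51.6 and 42.3 (-0.94 ± 0.24, adjusted p = 0.0105). Cblb had 4 of its 8 always-called regions among the 24 that fell, and all 4 passed with any 1 list left out.

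The region at the start of Inpp5d (chr1:87620113-87620954) fell from percentiles 65.2, 27.8 and 46.9 on D4 to 6.87, 14.2 and 5.97 on D8, with 11.7, 9.12 and 13.1 on D21 (-1.28 ± 0.25, adjusted p = 0.00235). The 3 D4 lists spread widely and all lay above the later ones. A region in the body of Skap1 (chr11:96466970-96467330) fell from 59.0, 69.9 and 69.4 to 19.8, 28.5 and 20.4, with 39.0, 28.0 and 34.3 on D21 (-1.17 ± 0.20, adjusted p = 0.00115). The region at the start of Stim1 (chr7:102266257-102268228) fell from 54.1, 57.8 and 65.2 to 16.0, 21.6 and 16.1, with 15.7, 26.7 and 22.6 on D21 (-1.15 ± 0.20, adjusted p = 0.00122). Ranked by −log10 p, the 3 Cblb regions described and the Inpp5d region still passed in limma, and those of Skap1 (adjusted p = 0.0973) and Stim1 (0.191) did not. Nor did the fourth Cblb region that fell, in the gene body (chr16:52094574-52096126), with an adjusted p = 0.360.

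The largest rise was at a region 3.03 kb outside Ppp3ca (chr3:136940758-136941808). It stood at percentiles 11.5, 32.2 and 14.5 on D4, 81.6, 72.4 and 93.8 on D8 and 81.5, 79.6 and 80.3 on D21 (1.92 ± 0.26, adjusted p = 0.000331). Its fold enrichment was 4.13, 4.98 and 4.20 on D4, 11.5, 10.6 and 13.0 on D8 and 10.8 to 11.1 on D21. All later lists lay above all D4 lists, and D8 and D21 overlapped. A second Ppp3ca region, 57.6 kb outside the gene (chr3:136611402-136612148), rose from percentiles 81.5, 57.3 and 83.4 to 97.1, 99.3 and 93.9 (1.27 ± 0.28, adjusted p = 0.00467), and did not pass by −log10 p (adjusted p = 0.288).

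A region in the body of Ptpn6 (chr6:124723062-124724213) rose from percentiles 6.92, 3.07 and 3.66 on D4 to 35.4, 30.2 and 31.6 on D8 and stood at 51.1, 36.5 and 45.5 on D21 (1.26 ± 0.20, adjusted p = 0.000753). Its fold enrichment was 3.87, 3.58 and 3.52 on D4, 8.01, 7.61 and 7.69 on D8 and 8.88, 7.98 and 8.37 on D21. The D4 lists lay below all others. A region in the body of Grap2 (chr15:80639024-80639618) rose from 11.1, 2.59 and 18.1 to 43.5, 48.2 and 48.0, with 6.35, 31.6 and 35.4 on D21 (1.27 ± 0.31, adjusted p = 0.00762). One in the body of Sos1 (chr17:80441364-80442174) rose from 26.0, 17.7 and 17.7 to 44.1, 59.3 and 60.9, with 41.8, 46.6 and 56.0 on D21 (0.95 ± 0.21, adjusted p = 0.00430). By −log10 p the Ptpn6, Grap2 and first Ppp3ca regions passed and the Sos1 region did not (adjusted p = 0.113).

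**Figure D4:**
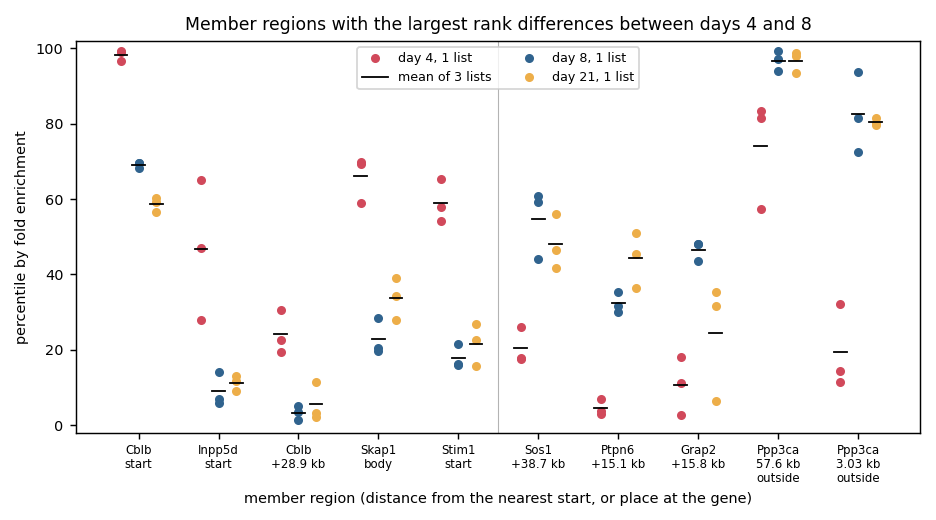
Percentile by fold enrichment in each of the 9 lists (points, coloured by day; black bars are means of 3 lists) for the 5 member regions that fell most and the 5 that rose most in rank between D4 and D8. The Cblb start region goes from 96.8 to 99.2 on D4 to 68.2 to 69.7 on D8, and the Ppp3ca region 3.03 kb outside the gene from 11.5 to 32.2 to 72.4 to 93.8.

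Start sites were known for 34 of the 43 members, from RefSeq promoters on GRCm38.p6, the assembly of mm10, as windows from 250 bases before to 50 after a start. Malt1, Mapk3, Dusp4, Pag1, Cd6, Cd2, Skap1, Itpr1 and Ppp3ca had no entry. A start window was called in all 3 lists at 26 of the 34 genes on D4 (76.5%) and at 30 on D8 and D21 (88.2%), beside 31.7% and 39.8% of the 26794 genes with an entry on D4 and D8. Those 26794 outnumber the 21631 protein-coding genes and are thus a wider set than the one the members come from. The 4 genes that joined were Akt1, Csk, Dgka and Ptprc. A start region of Akt1 (chr12:112674712-112675710) was already called in 2 of 3 D4 lists, and the Csk one in no D4 list. The Ptprc start region (chr1:138175113-138175453) was called in no D4 list and had fold enrichments of 3.36, 5.81 and 4.53 on D8 and 4.02, 4.40 and 4.08 on D21. The Dgka one (chr10:128744721-128745195) was called in no D4 list and stood at 3.11, 3.64 and 3.04 on D8. At Lck, the start within the gene (chr4:129558165-129558939) was called in all 9 lists and the outer start (chr4:129573416-129573857) in 2 of 3 D4 lists and all later ones. The start windows of Grap2, Lcp2, Prkcq and Ptpn6 were called in all 3 lists on no day.

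Of the 26 member regions in all 9 lists that reach their own gene's start window, 9 fell in rank on D8 and 1 rose, beside 19.2% lower and 8.35% higher among all always-called regions that reach a start window. The 77 regions away from their gene's starts had 12 lower and 4 higher, beside 12.5% lower and 17.3% higher among all always-called regions that reach no start window. The sets are not fully alike, since the member split used the gene's own starts and the other split the starts of any gene. Of the 136 member regions, 31 reach a start window of any gene. The 33 regions of genes with no entry had 3 lower (9.09%) and 4 higher (12.1%), beside 15.7% and 13.0% of all always-called regions. The 150 bases before the start are printed for these 10 genes, because their start regions passed the rank test. They are on the gene's strand, from RefSeq on GRCm38.p6, with every match to 1 of 7 motifs, on either strand, in capitals. The motifs were CCGGAAG (ETS), TGTGGTT (RUNX), TGANTCA (AP-1), TGGAAA (NFAT), GGGCGG (SP/KLF), CAGGTG (E protein/ZEB) and CTTTGAT (TCF). All capitals below are GGGCGG or its reverse complement, except the first run in Fyn, which is the TCF motif.
Cblb: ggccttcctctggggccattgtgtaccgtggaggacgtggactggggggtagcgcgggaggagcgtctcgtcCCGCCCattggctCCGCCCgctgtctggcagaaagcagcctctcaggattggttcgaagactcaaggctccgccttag
Inpp5d: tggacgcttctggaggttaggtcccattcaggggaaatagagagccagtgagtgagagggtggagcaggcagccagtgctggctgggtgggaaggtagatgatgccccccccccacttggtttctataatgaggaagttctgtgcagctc
Stim1: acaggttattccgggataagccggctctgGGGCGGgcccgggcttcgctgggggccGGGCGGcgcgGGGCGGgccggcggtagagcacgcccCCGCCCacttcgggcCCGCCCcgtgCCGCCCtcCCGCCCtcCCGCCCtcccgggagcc
Ptpn22: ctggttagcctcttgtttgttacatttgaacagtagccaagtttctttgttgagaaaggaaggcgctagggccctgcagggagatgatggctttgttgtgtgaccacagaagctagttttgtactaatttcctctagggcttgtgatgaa
Cbl: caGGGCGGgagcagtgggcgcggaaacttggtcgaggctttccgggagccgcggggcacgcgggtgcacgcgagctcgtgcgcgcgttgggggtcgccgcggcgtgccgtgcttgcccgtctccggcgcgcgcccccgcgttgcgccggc
Bcl10: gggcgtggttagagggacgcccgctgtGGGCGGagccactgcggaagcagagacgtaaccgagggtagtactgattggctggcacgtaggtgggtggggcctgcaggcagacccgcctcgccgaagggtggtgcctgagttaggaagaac
Dusp5: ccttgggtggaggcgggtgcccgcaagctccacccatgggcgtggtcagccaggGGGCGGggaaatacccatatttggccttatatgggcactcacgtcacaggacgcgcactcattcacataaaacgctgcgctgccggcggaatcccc
Fyn: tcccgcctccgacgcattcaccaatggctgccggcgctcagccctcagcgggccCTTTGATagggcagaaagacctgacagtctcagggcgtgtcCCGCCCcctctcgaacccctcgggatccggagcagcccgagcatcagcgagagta
Dusp6: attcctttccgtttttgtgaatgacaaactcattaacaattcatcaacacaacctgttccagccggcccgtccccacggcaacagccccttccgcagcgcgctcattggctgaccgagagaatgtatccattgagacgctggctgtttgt
Lat: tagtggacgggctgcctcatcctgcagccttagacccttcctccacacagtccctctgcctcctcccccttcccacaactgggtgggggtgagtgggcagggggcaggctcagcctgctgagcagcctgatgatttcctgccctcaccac

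GGGCGG was found before 6 of these 10 starts (Cblb, Stim1, Cbl, Bcl10, Dusp5 and Fyn), before 46.0% of the 50 member starts and before 28.6% of 32817 starts of all genes, in windows of the same length. CTTTGAT was found only at Fyn among the 10, and in 1.80% of all starts. The other 5 motifs were in none of the 10, and were in 2.61% to 10.8% of all starts. The starts of all genes were matched to the members in window length only. On D4 a start window was called in all 3 lists at 76.5% of members with an entry and 31.7% of all genes. The part of this in the motif shares was not tested. A match describes letters and is not a binding site. Most of the peak summits lay in or beside the printed bases: their median offset over the 9 lists, negative before the start, was -34 bases at Cblb and Ptpn22, -105 at Fyn, -83 at Dusp5, -24 at Dusp6, -23 at Bcl10, -10 at Lat and 16 at Inpp5d. At Cbl (-210) and Stim1 (-962) the summits lay outside the printed bases.

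At the other start regions that fell, Ptpn22 (chr3:103859776-103860594) went from a mean percentile of 52.0 ± 9.63 on D4 to 14.6 ± 2.30 on D8, and Cbl (chr9:44233000-44234454) from 33.1, 50.4 and 46.7 in its D4 lists to 6.77, 17.9 and 20.3 in its D8 lists. Bcl10 went from 88.9 ± 9.34 to 66.1 ± 6.43 and Dusp5 from 81.7 ± 7.39 to 52.7 ± 8.16. None of these 4 passed when ranked by −log10 p, with limma adjusted p = 0.0574 at Ptpn22, 0.280 at Cbl, 0.737 at Bcl10 and 0.282 at Dusp5. Cbl also failed without D8 list 1 (adjusted p = 0.0523) and Bcl10 without D8 list 2 (0.0502). Fyn went from 72.1 ± 7.66 to 46.1 ± 6.01, but turned to a score difference of 0.07 by −log10 p, and failed without D4 list 1 or D8 list 3. Dusp6 went from 37.7 ± 14.6 to 16.7 ± 3.74 and failed by −log10 p (adjusted p = 0.880) and in 7 of the 9 fits with 1 list left out. Lat (chr7:126369146-126370092), whose region also lies in Spns1, was the 1 that rose, from percentiles 27.3, 55.3 and 53.9 to 68.0, 71.9 and 71.6 (0.66 ± 0.23, adjusted p = 0.0435). It failed by −log10 p (adjusted p = 0.0586) and in 6 of the 9 fits with 1 list left out. Its fold enrichment was 4.79, 5.99 and 5.88 on D4 and 10.3, 10.6 and 10.5 on D8.

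Few differences between D8 and D21 passed the threshold at these loci. By limma 0 of the 39 members were called higher or lower, as were 0% of all 7829 genes in each direction, also with no division by list length (0% and 0%) and in lists of equal length (0% and 0%). At an unadjusted p under 0.05 there were 3 of the 39 members (7.69%) and 9.04% of all genes. In lists of equal length there were 9 members (23.1%) and 6.04% of all genes. Here too the member loci were larger on average than those of all genes, and the part of locus size was not tested. Without the floor on the spread 0 members and 2 genes, both lower, were called. A p above the threshold does not show that the days are alike. In simulated lists, 200 genes had their regions closed with a probability of 0.5 on D8 or on D21. The fit relative to list length recovered 44 to 60 of these genes. Every D21 list lay above every D8 list at 1 member (Dusp5) and below at 2 (Dusp2 and Prkcq), beside 3.59% and 4.22% of all genes. These were named after their values were seen. The largest log2 difference was at Txk, 0.45, from 3, 4 and 3 called regions to 5, 4 and 5 (adjusted p = 0.552), and the next at Ppp3ca, 0.44 (adjusted p = 0.279).

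On D21, 6 member regions were gained over D8 and 1 was lost, beside 1.02% and 1.09% of all regions. All 6 were also absent on D4. The gained regions, with their D21 fold enrichments, were at Ppp3ca (chr3:136649122-136649461, 20.3 kb outside, 4.43, 4.80 and 4.91), Rasgrp1 (chr2:117431961-117432418, 89.1 kb outside, 4.45, 4.49 and 4.70), Fyn (chr10:39413225-39413505, in the body, 4.32, 4.29 and 4.13), Nck1 (chr9:100532945-100533261, in the body, 4.02, 4.50 and 3.68), Ubash3a (chr17:31245191-31245566, in the body, 3.37, 3.59 and 3.21) and Cd5 (chr19:10748770-10749124, 9.74 kb outside, 2.53, 2.70 and 2.82). The lost region lay 0.730 kb outside Dusp2 (chr2:127335061-127335429), with 2.46, 2.46 and 2.55 on D8. The count rose to 15 gained without D21 list 2, and to 6 lost without D8 list 2 or D21 list 1. In lists of equal length 7 were gained and 4 lost, beside 0.638% and 0.532%.

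In rank, 0 of the 136 member regions passed between D8 and D21 by limma (13 at an unadjusted p under 0.05, or 9.56%, where 10.1% of all regions were), beside 0.0199% of all regions higher and 0% lower. In simulated ranks this fit recovered 0 of 200 regions shifted by a score of 0.5, and 60 to 75 of 200 shifted by 1. Ranked by −log10 p, 1 rose and 0 fell, beside 0.768% and 0.351%. It lay in the body of Ppp3ca (chr3:136687913-136688733), with a score difference of 0.93 and an adjusted p = 0.0482. Its percentile by fold enrichment was 82.8, 70.7 and 64.6 on D4, 45.6, 49.0 and 63.1 on D8 and 68.4, 78.4 and 72.9 on D21. The D21 lists lay above the D8 lists and overlapped with D4.

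The wider pathway was described through 115 further genes, among them the CD3 chains and the NFAT factors. Their 1134 regions were called 319.7 ± 27.2 times per list on D4, 851 ± 35.9 on D8 and 851.7 ± 41.1 on D21. On D8 against D4, 18 of the 101 tested were higher and 27 lower relative to list length, beside 15.6% and 24.5% of all genes. The median log2 difference of the 101 was -0.04, and in lists of equal length 0 of them passed. The differences relative to list length ran from -1.30 at Rasa1, which turns Ras off, to 1.43 at Prkca, a protein kinase C. Rasa1 had 1 region called in every D4 and every D8 list, so its value is the growth of the lists alone, and it was 0.0 with no division and -0.0882 in lists of equal length. Prkca had 2, 3 and 5 of 28 called on D4 and 22, 24 and 25 on D8, and in lists of equal length its difference was 0.82 (adjusted p = 0.550). Of the 240 always-called regions of the 115 genes, 20 (8.33%) rose in rank and 55 (22.9%) fell, beside 13.0% and 15.7% of all always-called regions. Between D8 and D21, 0 genes and 0 regions passed.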

How the data were processed

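ATAC-seq peak lists of sorted P14 CD8 T cells were analysed, 1 deposited narrowPeak list per library and 3 lists per day. Sample titles gave the day and replicate number, since the values of the genotype and time point tags are swapped. The submitters' processing notes name mm10 with deepTools 2.0, MACS2, Picard and BWA 0.7.15, without saying what each was used for. Not given in the sources used here are read filters, any Tn5 shift and the settings of the peak caller. Each deposited list gives per peak a score, a fold enrichment over the list's own local background, and the −log10 p and −log10 q, all written by the authors' peak caller and used here only within a list. The lists give no counts, so depth is known only through the local background that the deposited fold and −log10 p together fix. A union region's values are those of its strongest peak in the list.

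Called regions per gene (pseudocount 0.5, at least 3 union regions) and normal scores of rank were fitted in limma 3.58.1 (R 4.3.3) on all 9 lists, with the day as the only term and 6 residual degrees of freedom. The spread of a gene's count had a floor at that of 1 region called with a probability of 0.5. P-values were adjusted by Benjamini-Hochberg over all genes or regions, with a threshold of 0.05. Both fits were tested on simulated data. Alternatives changed the division by list length, list length, pseudocount, filter, q, overlap, locus and ranking, added a replicate block or left out 1 list. Other steps used Python 3.11.15 with numpy 2.4.6, pandas 2.3.3 and matplotlib 3.10.9. Values per list are given for the members that passed and the 12 others with the most regions, and for the rest, outside that rule, so that every member is accounted for. Coordinates are given for regions gained or lost between D8 and D21, the widest gained region of each role, and the 5 highest and 5 lowest passing ranks, and promoters for start regions that passed. Members, lists and tests were chosen with earlier results of these data known. Some genes of the marker and pathway lists are not reported here by name.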

Additional observations from a re-analysis of the deposited data

How the results depend on the processing

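The number of members higher and lower on D8 against D4 depended on how list length was handled. With no division by list length 37 were higher and 0 lower, and in lists of equal length 0 and 0, as with equal length and no division, an alternative chosen after seeing the data. A pseudocount of 1 gave 18 lower, and leaving out 1 list gave 3 to 6 higher and 9 to 12 lower. Same-numbered lists of different days did not deviate together (correlations of -0.0292 to 0.0607 for called regions and -0.0022 to 0.0312 for rank), so the numbers are not taken as pairs, and a replicate block gave 3 higher. Regions gained on D8 fell to 8, with 6 lost, in lists of equal length and to 87 gained with gene bodies only, and lay between 140 and 168 with 1 list left out. For D21 against D8, equal length gave 4 lost, a call only where peaks cover 0.5 or more of a region's bases 3 lost, and gene bodies only 3 gained and 0 lost, while leaving out 1 list gave 6 to 15 gained and 1 to 6 lost. Ranks by −log10 p gave 4 higher and 13 lower on D8, and 1 higher on D21, and leaving out 1 list gave 6 to 13 higher and 14 to 31 lower on D8. The D21 counts of genes and of ranks were 0 in every fit with 1 list left out.

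With no division by list length these log2 differences turned upward: Akt1 1.06, Bcl10 0.32, Cblb 1.01, Cd5 0.76, Dgkz 0.98, Dusp2 1.05, Dusp4 1.21, Dusp5 1.17, Dusp6 0.85, Grap2 1.18, Inpp5d 0.96, Itpr1 1.04, Lat 1.04, Lck 0.49, Malt1 1.17, Nck1 1.27, Pag1 1.23, Pik3cd 1.21, Plcg1 1.10, Ppp3ca 0.75, Prkcq 1.05, Ptpn22 0.83, Ptpn6 0.85, Rasgrp1 0.69, Sos1 0.74, Txk 0.28, Vav1 0.91 and Zap70 0.49. The alternative's construction gives this, since it leaves the growth of the lists in. Equal length turned Fyn (-0.37), Itpr1 (0.0134), Lcp2 (-0.25) and Ptpn6 (0.0736), and with no division too Cd5 (0.0244), Fyn (-0.28), Itpr1 (0.10), Lcp2 (-0.16) and Ptpn6 (0.16). Cbl and Ptprc stood at -0.0882 with equal length. Their mean called regions were the same on D4 and D8 there (1.0 and 4.33), so that value is the division by list length alone. That rule of coverage turned Dusp6 (0.44), Pik3r1 (-0.59), Ptpn6 (0.77) and Ptprc (-0.29), and gene bodies only turned Cd6 (-0.33) and Pik3r1 (-0.28). Ranked by −log10 p, the Fyn start region (0.0713) and a Grap2 region (0.13) turned. The cause of the changes other than those of no division and of Cbl and Ptprc at equal length was not tested.

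Of the regions called in either of 2 lists, a share of 0.744 to 0.794 was called in both for same-day lists and 0.356 to 0.760 for lists of different days, so the ranges overlap. Same-day summit pileups differed by less than Poisson noise, which is no measure of independence for local maxima. Whether these lists are independent is not known, so the p-values describe these lists only. Weak regions of D4 cannot be told apart from closed ones, since a list holds only what passed the authors' peak threshold.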
